A study of Mus musculus with 48 samples.

Results

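The genes described here encode the machinery of oxidative phosphorylation: the subunits of the 4 respiratory chain complexes and of ATP synthase (complex V). They were taken from a table of reads per gene by symbol (Ndufa, Ndufb, Ndufc, Ndufs, Ndufv, Uqcr, Atp5 and Cox4 to Cox8 families, Sdha to Sdhd, Cyc1, and the mitochondrially encoded mt-Nd, mt-Co, mt-Cytb and mt-Atp genes), and kept where they were protein-coding and had a mean of at least 1 CPM over all libraries (CPM being the count of a gene scaled to the same total of reads on genes in each library). Of 121 rows with such a name, 12 were not protein-coding and 10 coding rows lay below that level, which left 99 of the 55414 genes in the table. These were 80 nuclear subunits, 11 mitochondrially encoded subunits and 8 Ndufaf genes, which the name rule also takes but which are assembly factors of complex I and not subunits. The complex of a subunit was read from its symbol, so Ndufa4 and Ndufa4l2 count in complex I in all that follows. All 99 passed the filter on low counts and were tested. They were thus chosen by name and by mean CPM over all 48 mice, so their level is not a result. Just inside the limit were mt-Atp8 (1.05 CPM), Ndufa4l2 (1.26 CPM) and Cox7a1 (1.43 CPM), and just outside were mt-Nd4l (0.942 CPM), mt-Nd3 (0.640 CPM) and Cox6a2 (0.422 CPM).

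Liver RNA-seq was available for 48 FCG mice, 6 in each of 8 groups. In FCG mice, here on a C57BL/6 background, the Y chromosome lacks Sry and an autosome carries it as a transgene, and both XX and XY mice therefore occur with ovaries (Ov) and with testes (Te). All mice were fed a high-fat diet (60% of calories from fat) from 15 to 17 weeks of age. The Intact groups kept their gonads and ate it for 11 weeks, and the gonadectomized (GDX) groups lost theirs at 75 days of age and ate it for 15 weeks. These durations are those of the labels, and the study's methods give slightly different ones. Gonadal status, weeks of diet and cohort therefore moved together, and the part of each in a difference between GDX and Intact mice cannot be told apart. In whole-liver RNA, fewer cells of a type and less RNA per cell cannot be told apart either.

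Complexes I and II pass electrons from NADH and succinate to ubiquinone, complex III hands them to cytochrome c, and complex IV passes them to oxygen. Complexes I, III and IV pump protons, and ATP synthase uses the gradient to make ATP. Complex II is encoded in the nucleus alone and is also an enzyme of the tricarboxylic acid cycle, while the other complexes combine many nuclear subunits with a core made from the mitochondrial genome. The mitochondrial mRNAs are cut from long transcripts of both strands of that genome, whereas each nuclear subunit has its own promoter. Hepatocytes are rich in mitochondria, which in liver also serve fatty acid oxidation, ketogenesis and gluconeogenesis.

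After GDX, 72 of the 80 nuclear subunits were lower than in Intact mice and 3 were higher, with a median log2 fold change of -1.19, and 7 of the 8 Ndufaf genes were lower. The mitochondrially encoded subunits moved less: 8 of 11 were lower, with a median of -0.33. Of the 7 with a mean above 1000 CPM, 5 were lower (median -0.18), and of the 4 under 10 CPM, 3 were (median -0.70). Of all 15414 genes tested, 34.9% were lower and 41.2% higher after GDX, with a median of 0.07. A gene was called where edgeR's quasi-likelihood test gave an adjusted p under 0.05, by the Benjamini-Hochberg method over every gene tested. The fit used TMM scaling, which estimates a factor for each library from the genes between its extremes. Scaling to library totals in its place moved the median of all genes after GDX to 0.27 and the share of called genes that were higher from 54.2% to 68.7%, with 69 nuclear subunits lower and 8 higher (median -0.94).

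Properties of the libraries moved with gonadal status too. They held 13071874 to 20045141 reads on genes, so counting error is small for all but the least abundant genes. Mapped reads outside annotated genes made up 3.47% to 6.2% of an Intact library and 8.52% to 11.3% of a GDX library. Malat1, an RNA retained in the nucleus, ranged from 221 to 511 CPM in Intact mice and from 1470 to 2420 CPM in GDX mice, with no overlap. Library properties also differed among the Intact groups. Median unmapped shares of these groups were 7.77% in XX Ov, 8.51% in XY Ov, 9.33% in XX Te and 12.1% in XY Te. Median shares of reads mapped to several places were 11.9%, 12.4%, 13.6% and 16.4% in the same order. The part of these differences in the results was not tested. Hepatocyte markers summed to 80270 to 153800 CPM in Intact and 104600 to 139900 CPM in GDX mice. Of these 8 markers 4 were higher and 2 lower after GDX, with log2 fold changes from -0.92 to 0.91. Neutrophil markers summed to a median of 20.6 CPM (range 1.44 to 713) in Intact and 1.88 CPM (range 0.0763 to 89.6) in GDX mice, with 3 of 4 tested lower after GDX. Of the other lists, 2 of 7 lymphocyte markers were lower and none was higher, 2 of 4 cholangiocyte markers were higher and none was lower, and Kupffer, endothelial and stellate cell markers went in both directions. Their part was not tested. The brown fat and muscle markers Ucp1, Ckm, Myh4 and Mb stayed below 1 CPM in every library, and markers of those tissues summed to at most 7.21 CPM.

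Liver used the widely expressed form of each cytochrome oxidase subunit that has tissue-specific forms. Levels between genes were compared as mean CPM per kilobase of transcript. Cox4i1 (483 CPM per kilobase) exceeded Cox4i2 3960-fold, Cox8a (172 CPM per kilobase) exceeded the heart and muscle form Cox8b 1810-fold, and Cox6b1 exceeded the testis form Cox6b2 1190-fold. Cox6a1 was 536-fold above the heart and muscle form Cox6a2. The smallest ratio was that of Cox7a2 to the heart and muscle form Cox7a1, at 72.3-fold. The median nuclear subunit of complex I had 78.1 CPM per kilobase, that of complex III 175, of complex IV 289 and of complex V 262. The 4 subunits of complex II lay within a narrow range of 131 to 165 CPM per kilobase.

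The 7 mitochondrial mRNAs with more than 1000 CPM had 4541 to 15240 CPM per kilobase, led by mt-Co1, the catalytic subunit of complex IV. The most abundant nuclear subunit, Ndufa4, had 1097 CPM per kilobase. The other 4 mitochondrial members, mt-Co2, mt-Co3, mt-Atp6 and mt-Atp8, were counted at only 5.15 to 7.88 CPM per kilobase, although they lie on the same long transcript as mt-Co1. Copies of their sequence elsewhere in the genome were therefore looked for, and the part of such copies in the low counts was not tested. Of all 50-base windows of mt-Co2, mt-Co3, mt-Atp6 and mt-Atp8, 100% occur a second time, letter for letter, on chromosome 1 in mouse genome build NCBIM37, as do 100% of mt-Nd4l and 99.0% of mt-Nd3. Copies of mt-Co3 cover chr1:24620027-24620810 there. By contrast, 0% of the windows of mt-Cytb, mt-Nd1 and mt-Nd6 were copied, 7.6% of mt-Nd5, 8.3% of mt-Nd2, 51.1% of mt-Co1 and 62.2% of mt-Nd4. Reads that match several places stand in a line of their own in the table and count for no gene. Whether the copies are the same in GRCm39, to which the authors aligned, was not tested. A 50-base window of a copied and of an uncopied gene is shown, 5′ to 3′ in the sense of the mRNA, with the first base of the transcript as position 1.
mt-Co3, positions 368 to 417, copied at chr1:24620394-24620443 (NCBIM37): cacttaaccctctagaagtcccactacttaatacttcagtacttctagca
mt-Cytb, positions 548 to 597, with no copy found: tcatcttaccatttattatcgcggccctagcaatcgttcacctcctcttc

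**Figure D1:**
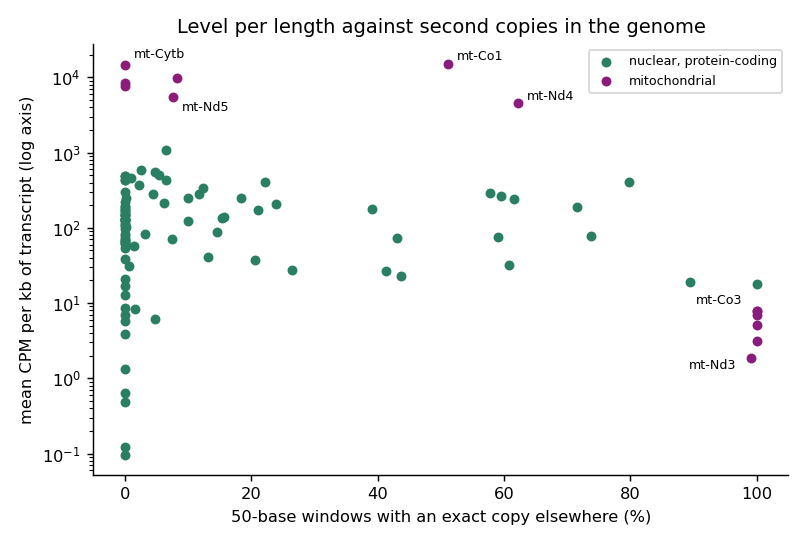
Each point is a gene, a nuclear or a mitochondrial one. The x axis gives the percent of its 50-base windows that occur a second time in NCBIM37, and the y axis its mean CPM per kilobase over 48 mice on a log axis. The mitochondrial genes with 100% of windows copied lie between 5.15 and 7.88 CPM per kilobase, or below where they were left out for their level, and those with up to 62.2% copied lie at 4541 or more.

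The nuclear subunits that were lower after GDX belonged to all 5 complexes. In complex I, with Ndufa4 and Ndufa4l2 counted there by symbol, 34 of 38 nuclear subunits were lower and 2 were higher. Their median log2 fold change was -1.16. In complex III 8 of 9 were lower (median -1.06), in complex IV 12 of 12 (median -1.45), and in complex V 15 of 17 (median -1.20). Complex II moved least, with 3 of 4 subunits lower, 1 higher and a median of -0.42.

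Ndufa4, a small membrane subunit first assigned to complex I and later found in complex IV, fell most. Its lowest, median and highest CPM were 124, 753 and 1990 in the 24 Intact mice and 131, 163 and 182 in the 24 GDX mice. By group the Intact medians were 966 CPM in XX Ov, 982 CPM in XY Ov, 604 CPM in XX Te and 1054 CPM in XY Te. After GDX the 4 medians lay within 153 to 170 CPM. GDX mice were thus all low and close together, whereas Intact mice ranged from the GDX level to more than any GDX mouse, and the groups overlapped through an XY Te Intact mouse at 124 CPM. The log2 fold change was -2.78 ± 0.22 (SE, n = 24 and 24, edgeR adjusted p = 2.43e-14). Cox7b, a small X-linked subunit of complex IV, had a lowest, median and highest of 79.1, 569 and 1617 CPM in Intact and 102, 132 and 157 CPM in GDX mice (log2 fold change -2.69 ± 0.22, edgeR adjusted p = 4.74e-14). Atp5mpl, a small proteolipid of the ATP synthase membrane domain, had a median of 237 CPM in Intact and 55.5 CPM in GDX mice (-2.67 ± 0.23, edgeR adjusted p = 9.86e-14).

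The 3 subunits that rose have catalytic roles, a trait shared by others that were not called higher, such as Atp5b. All 3 have transcripts of 1000 nucleotides or more. Sdha, the flavoprotein that oxidizes succinate, had a lowest, median and highest of 242, 356 and 569 CPM in Intact and 432, 502 and 566 CPM in GDX mice. The log2 fold change was 0.26 ± 0.06 (edgeR adjusted p = 0.000148). Ndufs1, a core subunit that holds iron-sulfur clusters of complex I, had medians of 85.0 CPM in Intact and 117 CPM in GDX mice (0.21 ± 0.05, edgeR adjusted p = 0.000277). Ndufv1, which binds NADH, had medians of 90.1 and 112 CPM (0.13 ± 0.04, edgeR adjusted p = 0.0059). Of the other subunits of complex II, Sdhd (-0.87) and Sdhb (-0.69) fell, and Sdhc fell little (-0.15 ± 0.04, edgeR adjusted p = 0.000312). The sign for Sdhc turned when an offset removed each library's dependence on transcript length, where it was called higher (0.37), and with library totals, where it was not called (0.06).

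The remaining 5 nuclear subunits were not called after GDX. Atp5b, the catalytic beta subunit and the nuclear member with the most reads, had medians of 850 CPM in Intact and 923 CPM in GDX mice (-0.07 ± 0.04, edgeR adjusted p = 0.117). Its direction depended on the scaling: with library totals, to which the CPM refer, it was called higher (0.15). Others, named here after their values were seen, were Atp5a1 (0.10), Uqcrc1 (0.01) and Ndufa4l2 (0.17). Uqcrc2, the partner of Uqcrc1 in the core of complex III, fell by 1.06 on the log2 scale (SE 0.11, edgeR adjusted p = 1.53e-11). In complex I, 4 of the 7 nuclear core subunits were lower and 2 higher (median -0.65). Of 31 accessory subunits, Ndufa4 and Ndufa4l2 among them, 30 were lower (median -1.30). This split was made after the values were seen and was not tested. Core transcripts were 758 (Ndufs7) to 2661 nucleotides (Ndufs1) long, all above the median of 703 nucleotides of the 80 nuclear subunits. The part of length, described below, in this split was not tested. The sole nuclear member whose 24 Intact values all lay above all 24 GDX values was Ndufa1, an X-linked membrane subunit of complex I (37.8 to 104 CPM and 26.5 to 37.5 CPM). Such a separation was seen for 0.324% of all genes tested.

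**Figure D2:**
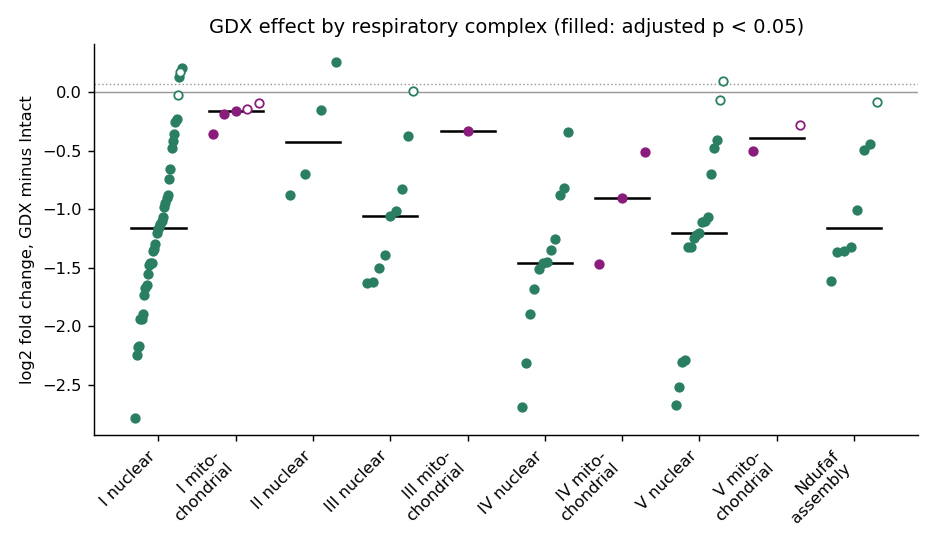
Each point is a gene, placed by the complex read from its symbol, with its log2 fold change (GDX minus Intact, 24 mice each) on the y axis. Filled points passed the edgeR test at an adjusted p under 0.05, bars are medians, the solid line marks 0 and the dotted line the median of all tested genes. Nuclear subunits reach from -2.78 (Ndufa4) to 0.26 (Sdha), and most mitochondrial ones lie closer to 0.

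**Figure D3:**
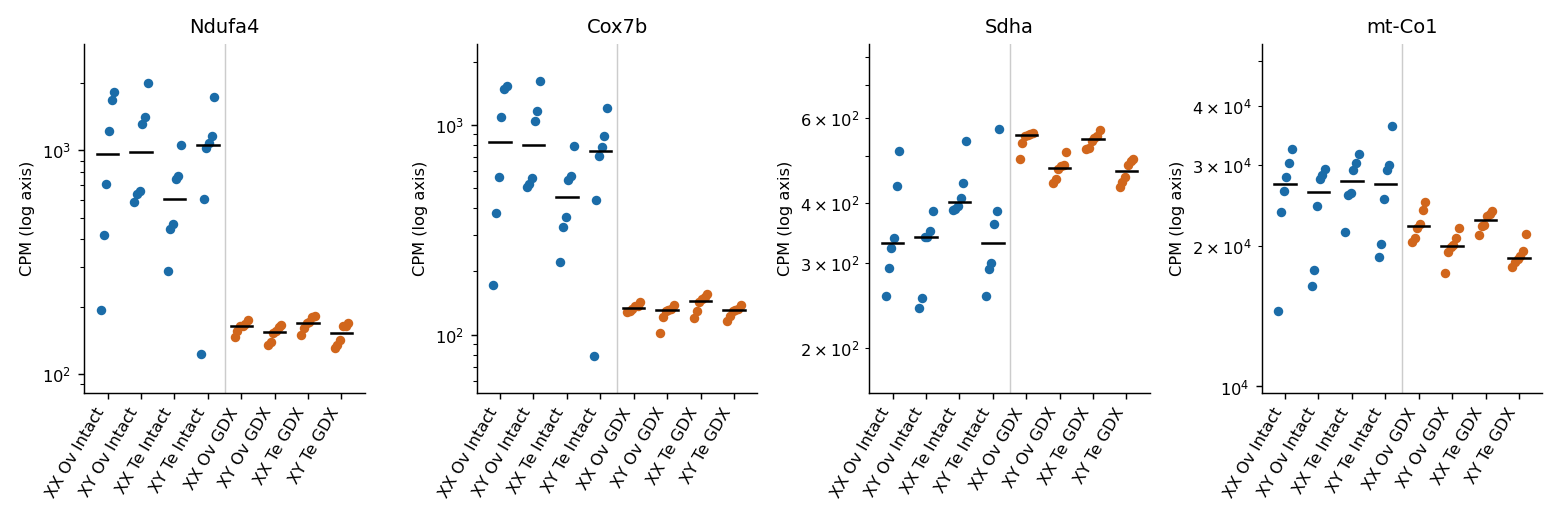
CPM on a log axis in each of 6 mice per group for single genes, with a bar at the group median (blue for Intact, orange for GDX, points spread sideways to show them). GDX mice sit close together, at 131 to 182 CPM for Ndufa4, while Intact mice spread from 124 to 1990 CPM.

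Intact mice varied far more among themselves in these genes than GDX mice did. The median SD of a nuclear subunit on the log2 scale was 0.67 in XX Ov, 0.55 in XY Ov, 0.30 in XX Te and 0.61 in XY Te Intact mice, against 0.09 to 0.16 in the 4 GDX groups. Over all genes tested it was 0.25 to 0.36 in the Intact and 0.17 to 0.19 in the GDX groups. In XY Te Intact replicate 5 and XX Ov Intact replicate 3 the nuclear subunits summed to 8030 and 9099.9 CPM, within the GDX range of 7248 to 9638 CPM, and their Ndufa4 levels were the lowest of their groups at 124 and 194 CPM. The fit used a single dispersion per gene, shared by all 8 groups.

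Across the 8 groups, nuclear and mitochondrial transcripts took different courses. The 80 nuclear subunits summed to a median of 16758 CPM in XX Ov, 15396 in XY Ov, 12694 in XX Te and 14538 in XY Te Intact mice. After GDX the medians were 8725, 8217, 8662 and 8045 CPM in the same order. The 11 mitochondrial genes summed to medians of 84494, 78720, 87279 and 88502 CPM in the Intact groups and 78458, 74623, 81570 and 68054 CPM after GDX. The nuclear sum thus stood lower in every GDX group than in the Intact group of the same genotype, by a far larger factor than the mitochondrial sum did. The ratio of mitochondrial to nuclear reads had a lowest, median and highest of 1.78, 6.09 and 9.57 in Intact and 7.75, 9.05 and 10.1 in GDX mice, so that the ranges overlapped. CPM are shares of a library, and these sums carry no test because the genes were chosen with such results known.

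**Figure D4:**
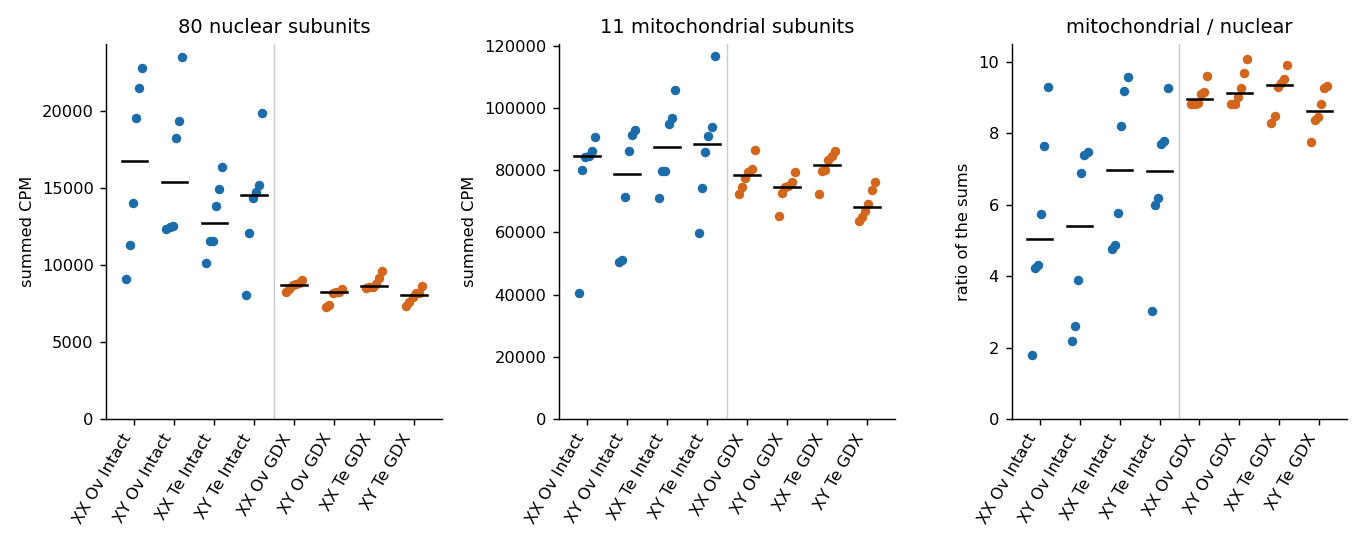
Each point is a mouse, in 8 groups of 6 (blue for Intact, orange for GDX), with a bar at the group median. The panels give the summed CPM of the 80 nuclear subunits, that of the 11 mitochondrial genes and the ratio of the second to the first. Nuclear sums of Intact mice reach 23535 CPM and those of GDX mice 9638 CPM, and the ratio lies at 7.75 to 10.1 in GDX mice.

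Among single mitochondrial genes, mt-Co1 was lower after GDX, with a lowest, median and highest of 14524, 27094 and 36315 CPM in Intact and 17563, 21027 and 24958 CPM in GDX mice. Its log2 fold change was -0.51 ± 0.07 (edgeR adjusted p = 1.42e-08). The genes for complex I subunits moved less, with mt-Nd1 at -0.35, mt-Nd2 at -0.18 and mt-Nd4 at -0.16, all called lower. Neither mt-Nd6 (-0.14, edgeR adjusted p = 0.0621) nor mt-Nd5 (-0.09, edgeR adjusted p = 0.32) was called. mt-Nd6 is the one messenger encoded on the opposite strand of the mitochondrial genome. mt-Cytb, the complex III subunit free of nuclear copies, had a log2 fold change of -0.33 ± 0.07 (edgeR adjusted p = 3.09e-05). Of the 4 fully copied genes, mt-Co3 (-1.47) and mt-Co2 (-0.90) fell most of all mitochondrial genes, mt-Atp6 (-0.50) fell about as much as mt-Co1, and mt-Atp8 (-0.28, edgeR adjusted p = 0.213) was not called. For mt-Co3 the medians were 8.40 CPM in Intact and 3.04 CPM in GDX mice. The share of reads that mapped to several places moved in the same direction, from 10.7% to 18.9% in Intact to 8.59% to 10.8% in GDX libraries, and its part was not tested. Under library totals in place of TMM scaling, 3 mitochondrial genes were lower and none was higher, and mt-Nd2 (0.02) and mt-Nd4 (0.04) had values above 0.

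Nuclear subunits have copies as well, since many have processed pseudogenes, and the part of these in the counts was not tested. The 52 subunits with under 10% of their windows copied had 44 lower and 3 higher after GDX (median -1.14). The 10 with 50% or more copied, such as Atp5g2 (100%) and Atp5l (89.4%), had 10 lower (median -1.39). Among the 36 with no window copied at all, 30 were lower and 3 higher (median -1.02).

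The subunits are encoded by short transcripts, and the difference between GDX and Intact libraries followed length over all genes. The annotated transcripts of the 80 nuclear subunits ran from 272 to 2900 nucleotides, with a median of 703 nucleotides against 2321 for all tested genes with a length. The median GDX log2 fold change of all genes was -0.67 under 400 nucleotides and -0.82 between 400 and 600, and from there rose to -0.24 between 1000 and 1500 and 0.49 above 6000 nucleotides. Members up to 2000 nucleotides stood below this course: their medians were -1.77 (6 members), -1.46 (23 members) and -0.74 (15 members) in the same order, and none was above 6000 nucleotides. Between 1500 and 2000 nucleotides the 6 members had a median of -1.08 against -0.08 for all genes, and of -0.93 against 0.05 once the length offset described next was applied. From 2000 to 3000 nucleotides the 5 members and all genes both had a median of 0.10. Of 54 nuclear subunits under 1000 nucleotides 53 were lower and none was higher, and of 26 longer ones 19 were lower and 3 were higher. Spearman's rho between length and log2 fold change was 0.47 over the 80 subunits and 0.44 over 13848 genes. These are correlations across genes, which share the libraries and are not independent replicates.

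Base composition moved with the change too. Under 1000 nucleotides, the 14 members with under 50% GC had a median GDX log2 fold change of -1.62 and the 40 others -1.19. All tested genes of that length had -0.94 under 50% GC and -0.49 at 50% or more. When each library's dependence on length was removed by an offset, 61 nuclear subunits were lower and 12 higher after GDX (median -0.57), and 2 mitochondrial genes were lower and 2 higher. With length and GC content both removed, 64 nuclear subunits were lower and 12 higher (median -0.51), and 8 mitochondrial genes were higher and none was lower (median 0.67). The direction for the mitochondrial genes therefore depended on this choice, while that for most nuclear subunits did not. All 61 and all 64 were among the 72 called lower without an offset. The lengths come from an older annotation's representative transcript. For Cox7b, given as 1001 nucleotides, and Ndufa11, given as 2661 nucleotides, this may not be the form expressed in liver.

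**Figure D5:**
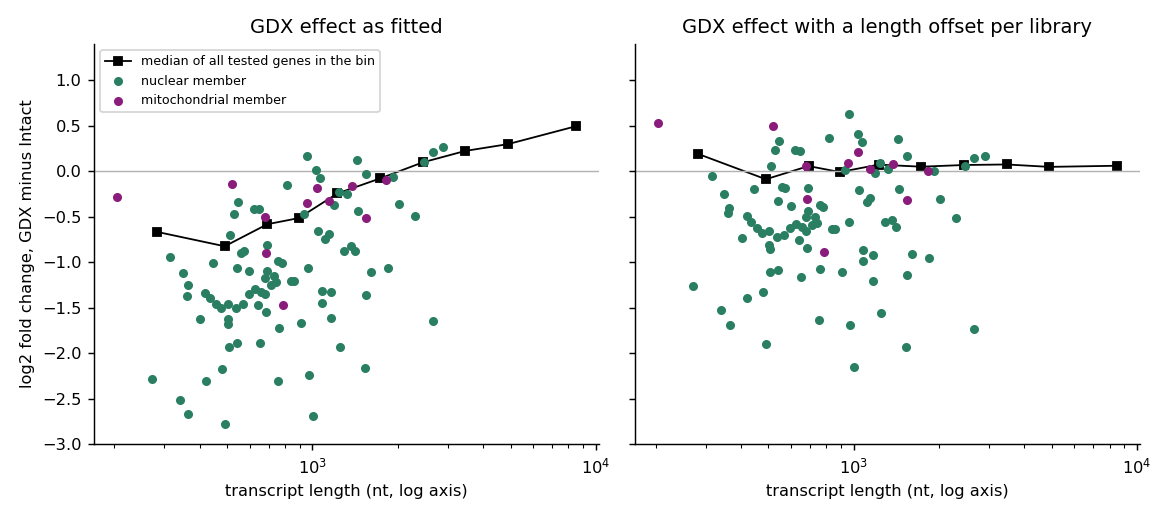
Log2 fold change (GDX minus Intact) against transcript length in nucleotides on a log axis, before (left) and after (right) an offset for length in each library. Points are nuclear and mitochondrial members and black squares the medians of all tested genes in bins of length. On the left the squares lie at -0.67 in the shortest bin, at -0.82 in the next and climb from there to 0.49, and on the right they lie between -0.09 and 0.19, with most nuclear members below them in both.

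Within single mice the ratio of reads on subunits under 1000 nucleotides to reads on longer ones showed the same separation. It had a lowest, median and highest of 0.745, 1.43 and 1.94 in Intact and 0.750, 0.788 and 0.855 in GDX mice. Intact group medians were 1.56 in XX Ov, 1.53 in XY Ov, 1.27 in XX Te and 1.61 in XY Te. The range of each GDX group lay below the median of each Intact group, and the lowest Intact mouse, XY Te replicate 5, lay below all GDX mice.

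After ovariectomy (Ov GDX against Ov Intact) and after castration (Te GDX against Te Intact) alike, 72 of the 80 nuclear subunits were lower. Over all genes 33.4% were lower and 36.0% higher after ovariectomy, and 29.9% lower and 33.4% higher after castration. The members' medians were -1.38 and -1.01. Cox7b fell most after ovariectomy (-3.07 ± 0.31, edgeR adjusted p = 1.36e-10) and Ndufa4 after castration (-2.51 ± 0.31, edgeR adjusted p = 7.64e-09). Sdha, Ndufs1 and Ndufv1 were higher after ovariectomy, and no nuclear subunit was called higher after castration, where Sdha had a log2 fold change of 0.16 ± 0.08 (edgeR adjusted p = 0.0955). Mitochondrial genes went 5 lower after ovariectomy (median -0.23) and 10 lower after castration (median -0.46). Of the 7 above 1000 CPM, 3 were lower after ovariectomy (median -0.04) and 7 after castration (median -0.36). Of the 4 under 10 CPM, 2 (median -0.49) and 3 (median -0.92) were lower. The difference between castration and ovariectomy was tested itself, and no member was called in either direction, with 7 nuclear and 3 mitochondrial genes at an unadjusted p under 0.05. Over all genes, 2.78% were called higher and 2.82% lower in that test. For Ndufa4 the difference was 0.53 ± 0.41 (edgeR adjusted p = 0.422).

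Among Intact mice, 7 nuclear subunits were higher with ovaries than with testes and none was lower, with a median log2 fold change of 0.31. Over all genes 14.1% were higher and 11.3% lower, so the share of nuclear subunits called was below that of all genes in both directions. The largest value was that of Atp5k, subunit e of ATP synthase. Its lowest, median and highest were 67.7, 276 and 463 CPM in XX Ov, 151, 232 and 515 CPM in XY Ov, 85.9, 151 and 234 CPM in XX Te, and 46.6, 207 and 336 CPM in XY Te Intact mice. The groups overlapped broadly (0.70 ± 0.26, edgeR adjusted p = 0.045). The others called were Ndufa7, Ndufc2, Ndufb10 and Ndufab1 of complex I, Atp5g1, which encodes the ring subunit of ATP synthase, and Cox7a2l, which helps respiratory complexes assemble into larger units (0.50 ± 0.19, edgeR adjusted p = 0.0456). Cox7b (0.69, edgeR adjusted p = 0.0734) was not called, and at the other end were Sdha (-0.21, edgeR adjusted p = 0.0623) and Uqcrc1 (-0.13, edgeR adjusted p = 0.074). In the opposite direction, mt-Nd2, mt-Nd4, mt-Nd5 and mt-Nd6, all of complex I, were lower with ovaries, with log2 fold changes from -0.28 to -0.35.

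These 7 calls rested on single mice. The count of nuclear subunits called in either direction was 37 without XX Ov Intact replicate 3, 32 without XY Te Intact replicate 3 and 26 without XX Ov Intact replicate 5. It was 16, 14 and 12 without XY Ov Intact replicate 2, 3 or 1, and 13 without XX Te Intact replicate 2. It was 3 without XX Ov or XY Ov Intact replicate 6, 2 without XX Te Intact replicate 6 or XY Te Intact replicate 4 or 6, and 1 without XX Ov Intact replicate 1 or 2, XX Te Intact replicate 1 or 3, XY Ov Intact replicate 4 or 5 or XY Te Intact replicate 5. A fit to the compared groups alone called 0 nuclear subunits. The count of mitochondrial genes, 4 in all mice, was 7 without XY Te Intact replicate 3, and 2 without XX Te Intact replicate 6, XY Ov Intact replicate 4 or XY Te Intact replicate 1. With library totals, 68.1% of all called genes were higher with ovaries, against 55.6% with TMM.

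Markers of other cells moved with this comparison. Lymphocyte markers summed to 2.42, 7.15 and 23.2 CPM (lowest, median, highest) in Intact mice with ovaries and 1.44, 3.10 and 9.63 CPM with testes, and 5 of 7 were higher with ovaries. Kupffer cell markers had medians of 646 and 323 CPM, and 4 of 7 were higher. Their part was not tested. After GDX, no member was called between former ovary carriers and former testis carriers by the edgeR test, and 0 nuclear and 0 mitochondrial genes reached an unadjusted p under 0.05. Only 0.0584% of all genes were higher and 0.0324% lower. The dispersion of each gene was shared with the Intact groups, which varied more, so this lack of calls does not show equal levels. No fit to the GDX mice alone was run.

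XX mice had higher levels than XY mice of 16 nuclear subunits, and lower levels of none (median log2 fold change 0.12). Over all genes 21.9% were higher and 14.8% lower (median 0.05). The share of nuclear subunits called higher was thus near that of all genes. Those called were 11 of the 26 subunits of 1000 nucleotides or more and 5 of the 54 shorter ones, a split that was not tested. None of the small membrane subunits that led the GDX difference was among them. Sdha had the largest value among those called (0.31 ± 0.06, edgeR adjusted p = 4.28e-05). After GDX it ranged over 494 to 557 CPM in XX Ov and 516 to 566 CPM in XX Te mice, and over 441 to 510 CPM in XY Ov and 432 to 492 CPM in XY Te mice. XX mice stood higher here and met XY mice only at the edge of their ranges. In Intact mice the groups overlapped, with 256.1 to 512 CPM in XX Ov and 242 to 385 CPM in XY Ov mice. Among Intact mice with testes, XX reached 536 CPM, and the highest value of any Intact mouse was that of an XY Te mouse. Also called were Ndufs1 (0.31), Uqcrc1 (0.29), Atp5a1 (0.29), Ndufv1 (0.29) and Atp5b (0.27). Ndufa9, Ndufa10, Ndufa13, Cyc1, Cox6a1, Cox8a, Sdhc, Atp5d and Atp5g2 were called as well. Cox7a1 had the largest value of all (0.32) and was not called (edgeR adjusted p = 0.147), and Cox7a2l had the lowest (-0.15, edgeR adjusted p = 0.413).

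Of the mitochondrial genes, mt-Nd5 (0.26), mt-Co1 (0.24), mt-Nd1 (0.23) and mt-Nd6 (0.21) were higher in XX mice. This call count was 7 without XY Te Intact replicate 1 and 2 without XY Te Intact replicate 3 or XY Ov Intact replicate 6. The Ndufaf genes called were Ndufaf1 and Ndufaf7. Within GDX mice 21 nuclear subunits were higher in XX (19.5% of all genes higher, 14.8% lower), and within Intact mice 9 were (4.27% higher, 6.42% lower). None was lower in either. Both effects were fitted with the dispersion shared by all 8 groups, although GDX mice varied less than Intact mice. The difference between these effects was tested itself, and no member was called, with 4 nuclear subunits, 3 mitochondrial subunits and 1 Ndufaf gene at an unadjusted p under 0.05, while 0.402% of all genes were called higher and 1.72% lower.

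The 3 X-linked members did not stand apart. Ndufa1 (0.13 ± 0.11), Ndufb11 (0.01 ± 0.14) and Cox7b (-0.01 ± 0.21) did not pass the test between XX and XY mice. Hccs, an X-linked gene outside the list whose product attaches heme to the cytochromes c, was lower in XX mice, at 9.56 to 15.7 CPM in all XX and 18.6 to 29.4 CPM in all XY mice (-0.89 ± 0.06, edgeR adjusted p = 3.49e-17).

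The scaling bears on the comparison of XX with XY mice. TMM factors were 0.946 to 1.07 in XX GDX and 1.07 to 1.24 in XY GDX mice. With library totals in place of TMM, 28.1% of all called genes were higher in XX, against 59.8% with TMM and 48% with mitochondrial reads left out of the totals. Among GDX mice the same shares were 18.7%, 56.8% and 40.2%. With library totals 14 nuclear subunits were still called higher, all among the 16, and no mitochondrial gene was. Neutrophil markers summed to 0.0763, 1.63 and 30.1 CPM in XX and 1.22, 29 and 713 CPM in XY mice, and the 4 that could be tested were all lower in XX. Kupffer cell markers had medians of 321 and 751 CPM, with 6 of 7 lower in XX. The part of these cells was not tested.

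Genes that control the respiratory chain moved in both directions. Of 9 regulators of mitochondrial biogenesis, 4 were higher and 3 lower after GDX, shares near those of all genes (41.2% and 34.9%), and 6 were higher and 1 lower with library totals. Ppargc1a, the coactivator that raises mitochondrial gene expression, had a lowest, median and highest of 7.2, 12.3 and 21.4 CPM in Intact and 15.8, 19.7 and 29.7 CPM in GDX mice. GDX mice were the higher ones, with some overlap (0.47 ± 0.07, edgeR adjusted p = 2.81e-07). Its relative Ppargc1b (0.22, edgeR adjusted p = 0.0842) and the transcription factor Nrf1 (-0.00, edgeR adjusted p = 0.99) were not called. Gabpa (0.11), the DNA-binding subunit of nuclear respiratory factor 2, was higher, and Esrra, the estrogen-related receptor alpha, was lower (-0.17, but 0.06 and not called with library totals). Tfam, which packages mitochondrial DNA and starts its transcription, was lower (-0.28 ± 0.05, edgeR adjusted p = 2.91e-06), but called higher with the length offset (0.21). Its partner Tfb2m was lower (-0.43). The mitochondrial RNA polymerase Polrmt (0.37) and Lrpprc (0.15), which stabilizes mitochondrial mRNAs, were higher, although Lrpprc had -0.09 with the length offset and was then not called. Slirp, the partner of Lrpprc, was counted too rarely to be tested (mean 0.051 CPM).

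Nuclear genes that carry or build the chain, by contrast, were mostly lower. Cycs, the somatic cytochrome c, had a GDX log2 fold change of -1.44 ± 0.13 (edgeR adjusted p = 2.05e-13). Atpif1, which blocks ATP hydrolysis by the synthase, had a median of 20.4 CPM in Intact and 9.11 CPM in GDX mice (-1.64 ± 0.17, edgeR adjusted p = 2.06e-11) and was higher with ovaries among Intact mice (0.87 ± 0.23, edgeR adjusted p = 0.00571). Of 34 tested assembly factors of the complexes outside the Ndufaf family, 27 were lower and 1 higher after GDX (median -0.60). Of 76 proteins of the mitochondrial ribosome, 72 were lower and 1 higher (median -0.92). Of 20 genes of mitochondrial gene expression 13 were lower and 5 higher (median -0.37). Enzymes of the tricarboxylic acid cycle, which share the matrix with the complexes, had 6 of 13 lower and 2 higher (median -0.07). With library totals 3 of these were lower and 7 higher (median 0.14). The same enzymes were higher in XX than XY mice in 11 of 13 cases (median 0.27) and lower in none, against 21.9% and 14.8% of all genes, and with library totals 8 were higher and none lower (median 0.16).

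Promoters of 66 of the 80 nuclear subunits could be matched in RefSeq (assembly GRCm38.p6), taken as the 250 bases before and 50 after the annotated start. On either strand, 28.8% of them held the NRF1 motif in the letters GCGCANGCG, against 6.5% of all 27025 promoters. The YY1 motif AAGATGGCG was in 9.1% against 1.5%, the ETS motif CCGGAAGT bound by GABP in 7.6% against 4.0%, CCAAT in 42.4% against 37.9% and TATAAA in 9.1% against 14.2%. The 19 subunits with the NRF1 letters had a median GDX log2 fold change of -1.10 and the 47 without -1.30. A match is a description of letters and not a binding site. The promoters of the 2 subunits that fell most after GDX, Ndufa4 and Cox7b, and of Sdha, the one that rose most, are shown 5′ to 3′ on the strand of the gene, with matches to these motifs on either strand in capitals.
Ndufa4 promoter, chr6:11907401-11907700 (minus strand): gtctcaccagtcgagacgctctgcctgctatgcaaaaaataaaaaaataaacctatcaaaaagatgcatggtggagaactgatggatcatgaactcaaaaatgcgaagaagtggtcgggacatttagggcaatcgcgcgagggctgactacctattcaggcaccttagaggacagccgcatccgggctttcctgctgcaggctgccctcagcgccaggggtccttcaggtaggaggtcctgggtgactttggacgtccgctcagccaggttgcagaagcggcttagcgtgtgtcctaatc
Cox7b promoter, chrX:106015450-106015749 (plus strand): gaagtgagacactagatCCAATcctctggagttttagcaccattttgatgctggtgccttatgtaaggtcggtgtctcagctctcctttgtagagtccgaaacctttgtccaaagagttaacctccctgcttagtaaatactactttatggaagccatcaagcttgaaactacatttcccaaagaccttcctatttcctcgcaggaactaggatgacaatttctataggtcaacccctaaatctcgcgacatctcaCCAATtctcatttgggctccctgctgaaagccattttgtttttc
Sdha promoter, chr13:74350191-74350490 (minus strand): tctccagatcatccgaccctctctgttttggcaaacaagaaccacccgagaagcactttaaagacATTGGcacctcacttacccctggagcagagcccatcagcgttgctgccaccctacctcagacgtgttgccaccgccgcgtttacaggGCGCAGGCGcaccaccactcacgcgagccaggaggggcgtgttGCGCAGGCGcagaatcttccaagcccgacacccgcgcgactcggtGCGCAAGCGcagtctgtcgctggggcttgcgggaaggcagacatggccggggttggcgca
None of the 5 motifs was found in the Ndufa4 window. The Cox7b window, with 43.3% GC, held CCAAT at 2 places. The Sdha window, with 62.7% GC, held the NRF1 letters at 3 places and CCAAT, as its reverse complement, at 1 place.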

How the data were processed

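Total RNA was isolated from snap-frozen liver with TRIzol, and libraries were made with the KAPA mRNA HyperPrep kit. Per the submitters' processing notes, the authors aligned reads to GRCm39 and counted reads per gene with STAR (2.7.10a), and used DESeq2 (1.36.0). The annotation release, strand setting and trimming are not given in the sources used here. The deposited file holds raw counts per Ensembl gene for 48 mice, with 4 summary lines for reads not assigned to a gene, which stayed out of library sizes. Unmapped reads made up 6.99% to 16.5% of a library, reads mapped to several places 8.59% to 18.9%, and reads that fit several genes 2.53% to 3.55%. Reads on genes came to 13071874 to 20045141 per library, so counting error is small except near 1 CPM. The replicate is the mouse.

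Counts were fitted in R 4.3.3 with edgeR 4.0.16 (filterByExpr by group, TMM, robust quasi-likelihood), with a mean for each of 8 groups over all 48 mice. Contrasts were GDX, ovariectomy, castration, gonadal, chromosomal and 2 differences of effects, with Benjamini-Hochberg adjustment over 15414 genes and a threshold of 0.05. SE are on the log2 scale. The members and lists were chosen with earlier results of these data known, so no list was given a p-value. Named genes were the 2 highest and 2 lowest nuclear fold changes per effect, all mitochondrial and complex II members, the most counted member per complex, X-linked members, isoform pairs, Atpif1, Cycs, Hccs and the regulators. Others are members called in a count. The values of 1 member are not reported here.

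Alternatives were library totals, DESeq2 size factors and Wald test (1.42.0), no low-count filter, only the compared groups, offsets for length or for length and GC content (loess span 0.3), 1 surrogate variable (sva 3.50.0), and leaving out XX Te Intact replicate 5, whose Pnpla3 value the paper does not list. Leaving out each mouse, 5 Intact mice with a TMM factor under 0.85, 4 Intact mice with the highest unmapped share, or mitochondrial reads was chosen after seeing the data. The 4 mice were XY Te Intact replicates 1, 2, 3 and 4. The 5 mice were XX Ov Intact replicates 1, 2 and 6, XY Ov Intact replicate 6 and XY Te Intact replicate 3. The fits were tested on simulated counts. Second copies were counted by exact match of 50-base windows of transcripts to NCBIM37, whose annotation also gave lengths and GC content. No columns of other samples were in the table.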

Additional observations from a re-analysis of the deposited data

Results flagged for a closer look

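Of 192 checks of a group of 6 mice, 3 flagged a mouse farther from the rest than Dixon's 95% limit for 6 values allows. Chance alone marks about 1 in 20 such groups. XX Te Intact replicate 1 had the highest Sdha level of its group, 536 CPM, with the next mouse at 439 CPM. XX Ov Intact replicate 6 had the lowest Sdhc level of its group, 104 CPM, with the next mouse at 122 CPM. The same XX Ov Intact mouse had the lowest summed level of the 11 mitochondrial genes, 40588 CPM, with the next mouse at 80146 CPM. Its nuclear subunits summed to 22775 CPM, the highest of its group, its ratio of mitochondrial to nuclear reads was 1.78, the lowest of all 48 mice, and its TMM factor was 0.742, also the lowest. Without it, 3 nuclear subunits in place of 7 were called between Intact mice with ovaries and testes.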

How the results depend on the processing

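No paired analysis was possible because the labels give each mouse its own number and the groups share no mice. The 72 nuclear subunits lower after GDX stayed at 72 in each of the 48 fits that left out 1 mouse, and the same 72 were called without 5 Intact mice of low TMM factor and without 4 Intact mice of high unmapped share. Of 708 counts recomputed, 647 stayed within 1.5 times the value reported and 61 did not, and the cause was not tested. Most of the 708 came from the fits that left out 1 mouse. Under the other alternatives a larger share of the counts moved.

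Nuclear subunits higher after GDX, 3 as reported, were 8 with library totals, 12 with the length offset, 12 with the length and GC offset and 5 with 1 surrogate variable. Mitochondrial genes higher after GDX, 0 as reported, were 2 with the length offset and 8 with the length and GC offset. Those lower, 8 as reported, were 3 with library totals, 2 with the length offset and 0 with the length and GC offset. After ovariectomy 5 mitochondrial genes were called, and 10 with the length and GC offset, 3 with 1 surrogate variable and 3 without the 5 Intact mice of low TMM factor. After castration 10 were called, and 6 with library totals, 3 with the length offset, 5 with the length and GC offset and 6 without the 4 Intact mice of high unmapped share.

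Between Intact mice with ovaries and testes, 7 nuclear subunits were called. Counted in either direction, there were 12 with library totals, 12 with the DESeq2 Wald test, 1 with no low-count filter and 0 with only the compared groups. There were 4 with 1 surrogate variable, 1 without the 5 mice and 63 without the 4 mice. Those higher with ovaries numbered 9 with the Wald test, 1 with 1 surrogate variable, 0 without the 5 mice and 60 without the 4 mice. In these 4 fits the rest were lower with ovaries. The 4 mice were all XY Te Intact, so the fit without them kept few mice of that group. The 5 mice included XX Ov Intact replicates 1, 2 and 6. The 4 mitochondrial calls became 1 with library totals, 0 with only the compared groups, 7 with the length offset, 8 with the length and GC offset and 0 without the 4 mice. Between XX and XY mice 16 nuclear subunits were called, and 39 with either offset. With 1 surrogate variable 50 were called, 49 of them higher in XX, and without the 4 mice 25 were. The 4 mitochondrial calls became 0 with library totals, 1 with no low-count filter and 1 with the length and GC offset.

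Leaving out 1 mouse at a time gave 3 to 4 nuclear subunits higher and 72 to 72 lower after GDX, and 0 to 0 mitochondrial genes higher and 6 to 9 lower. It gave 74 to 76 nuclear and 4 to 5 mitochondrial calls for ovariectomy and 71 to 74 and 9 to 11 for castration. For ovaries against testes it gave 1 to 37 and 2 to 7, and for XX against XY mice 14 to 22 and 2 to 7.

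With the length offset, signs turned for Cox8a (GDX 0.33, ovariectomy 0.44, castration 0.21), Sdhc (GDX 0.37, ovariectomy 0.43, castration 0.31) and Tfam (GDX 0.21, ovariectomy 0.29). Depth limits mt-Atp8, Ndufa4l2 and Cox7a1, near 1 CPM, and the part of copied sequence in the low counts of the 4 mitochondrial genes under 10 CPM was not tested.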

Other observations

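Rows that carry the names of these families and were left out as pseudogenes or near-identical copies held few reads. The highest was Ndufa12-ps, with a mean of 8.0 CPM beside 30.6 CPM for Ndufa12, followed by Cox5b-ps with 1.07 CPM beside 140 CPM for Cox5b. No reads were counted in any mouse for Cox8c or Cox7b2, whose products are forms of complex IV subunits known from testis.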
